A study of Mus musculus with 5 samples.

Results

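The genes described here are 40 genes of the type I interferon response, named by symbol from general knowledge of the response and joined to the Ensembl identifiers of the deposited tables. All 40 symbols matched 1 identifier each among the 46983 genes listed. They were followed in 5 RNA-seq libraries labelled as tumour-associated macrophages (CD45+ CD11b+ Ly6G- F4/80+ cells), which had been sorted from orthotopic EO771 tumours, a mammary carcinoma line, in mice labelled C57/BL6. In 2 libraries the tumour-bearing mice had received 2 doses of 50 µg per kg of diphtheria toxin to remove regulatory T (Treg) cells, and the cells were sorted on day 4. The other 3 libraries came from tumours that were left untreated, so an effect of the toxin itself and one of Treg loss cannot be told apart. The allele that makes Treg cells sensitive to the toxin and the age of the mice are not given in the sources used here. It is not stated either that replicate libraries are from different mice; p-values then measure only how far these libraries scatter, and that scatter could be technical.

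Type I interferons (the IFN-α proteins and IFN-β) bind a receptor made of IFNAR1 and IFNAR2, whose kinases JAK1 and TYK2 activate transcription factors of the STAT family. STAT2 and IRF9 are subunits of the resulting complex ISGF3, which binds interferon-stimulated response elements (ISREs) in promoters. IFN-γ, the type II interferon, acts through another receptor and mainly through gamma-activated sites (GAS) in promoters, and many genes answer to both. The target genes encode antiviral effectors, sensors of foreign nucleic acid and regulators of the response itself. In tumours the type I response is best known for its part in dendritic cell priming of T cells. The study's title names IFN-γ, while these libraries compare Treg ablation with no treatment and include no manipulation of either interferon.

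Library totals ran from 13122668 to 20156835 counts. Values are CPM (counts scaled to a library of 1000000, with TMM factors) unless stated, given by library in the order Treg-ablated replicates 1 and 2, then control replicates 1, 2 and 3. Foxp3, the gene that defines Treg cells, had 6 counts over the Treg-ablated and 15 over the control libraries, a ratio of 0.686 with an exact 95% interval of 0.218 to 1.87 that covers counting error only, so it could not serve as a check of the ablation. Genes of fibroblasts were abundant in every library. Col3a1, a collagen gene, averaged 9040 and 8772 CPM in Treg-ablated and control libraries, against 5.83 and 9.72 CPM for Adgre1, the gene of F4/80. The values are therefore of the mixture of cells in each library, in which fewer cells of a type and less RNA per cell cannot be told apart.

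Some of the type I interferon response genes rose after Treg ablation while most did not, and their changes were small. Of 39 members that could be tested, 15 were higher, 4 were lower and 20 did not pass, at an adjusted p under 0.05 in edgeR's quasi-likelihood test with Benjamini-Hochberg adjustment over all 14580 genes tested. Over all those genes, 13.5% were higher and 12.3% lower, so the share of members that were higher (38.5%) lay above the background while the share that were lower (10.3%) lay near it. The largest rise was 1.49-fold, for Ifi204, and the largest fall 2.31-fold, for Siglec1. In edgeR's test against a change of 1.5-fold, 0 of the 39 passed after adjustment, while 98 of all genes passed as higher and 23 as lower; at an unadjusted p under 0.05, 0 members were higher and 1, Siglec1, was lower. The median log2 fold change was 0.14 over the members and −0.0062 over all genes tested. All 39 passed the filter on low counts, whereas Ifi44l, the remaining member, had 0 counts in every library, which allows up to 3 counts (0.15 to 0.226 CPM by library).

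Whether the 2 groups overlapped gave a similar picture. Both Treg-ablated libraries lay above all 3 controls for 22 members and below them for 8, and the groups overlapped for 9. Of all genes tested, 26.9% lay wholly above and 25.6% wholly below. All 19 members that passed the test had groups that did not overlap.

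**Figure D1:**
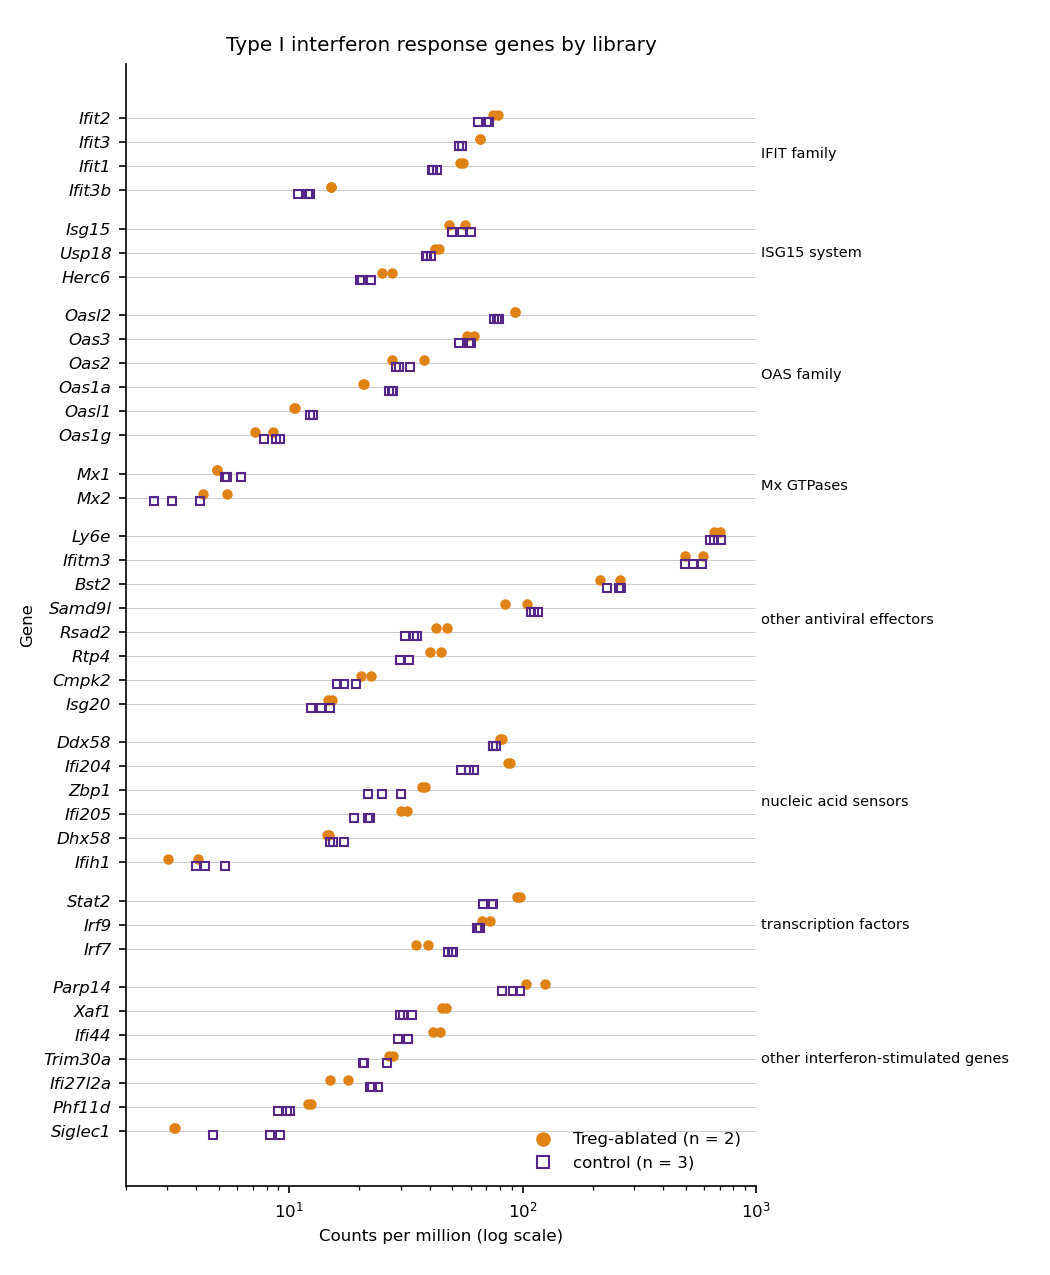
CPM of 39 members in each library (log axis), grouped by role, with filled circles for the 2 Treg-ablated and open squares for the 3 control libraries. Most pairs of groups lie within a small distance of each other, with Ifi204, Zbp1 and Xaf1 to the right and Siglec1 and Irf7 to the left after ablation.

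Per kilobase of exon, the most abundant members in controls were small membrane proteins. Ifitm3, which restricts virus entry, had 797 ± 69.3 CPM per kilobase (SD, n = 3), Bst2, the virion-tethering protein tetherin, 328 ± 24.7 and Ly6e, a GPI-anchored surface protein, 176 ± 9.63. Isg15, the ubiquitin-like modifier, followed at 72.8 ± 6.66 and Ifi27l2a, a small interferon-induced protein, at 49.4 ± 2.05. These 5 levels did not overlap with their neighbours between control libraries. Further down, the levels of Ifit2, Ifi204, Stat2, Irf7 and Ifit1 (17.5, 16.4, 16.4, 16.3 and 15.7) each overlapped with the next in that order. The lowest were Siglec1 (1.03), Mx2 (0.919) and Ifih1 (0.557). None of the 4 most abundant members passed the test of a change.

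Promoters of the members were searched for the response elements of both interferon types. RefSeq promoter windows on GRCm38.p6, from 250 bases before to 50 after the start of the gene, were at hand for 28 of the 40 members. The core of the ISRE, searched as GAAANNGAAA on both strands, was found in 15 of these 28 genes (53.6%), against 3.99% of 27025 genes with a window and 3.44% of 32851 windows. It was held by 6 of 11 members that were higher, 1 of 2 that were lower and 8 of 14 that did not pass, and Ifi44l, which was not tested, is the remaining gene of the 28. These are shares of 54.5%, 50.0% and 57.1%. With 1 mismatch allowed it was found in 26 of the 28, but also in 38.9% of all genes. The GAS motif, searched as TTCNNNGAA, which reads the same on both strands, was in 5 of the 28 against 9.55% of all genes, in 0 of the 11 that were higher, 1 of the 2 that were lower and 4 of the 14 that did not pass. The 2 motifs can overlap. A match describes letters only and was not tested for binding.

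The 160 bases before the RefSeq start of 6 members (GRCm38.p6) are shown 5′ to 3′ on the strand of the gene. These genes span the outcomes: Ifit1, Ifit3 and Rsad2 were higher, Isg15 and Oas1g did not pass, and Oas1a was lower. All 6 hold an ISRE core, which 15 of the 28 members with a window do, so members without a core are not shown. Capitals mark each ISRE core, in either orientation, and overlapping cores run together.
Ifit1, chr19:34640729-34640888, plus strand: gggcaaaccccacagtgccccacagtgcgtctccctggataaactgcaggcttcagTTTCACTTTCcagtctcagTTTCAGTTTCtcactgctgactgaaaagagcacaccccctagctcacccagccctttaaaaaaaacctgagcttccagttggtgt
Ifit3, chr19:34583369-34583528, plus strand: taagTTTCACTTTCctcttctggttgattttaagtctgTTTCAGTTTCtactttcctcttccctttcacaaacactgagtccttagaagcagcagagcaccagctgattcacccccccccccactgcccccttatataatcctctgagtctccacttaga
Rsad2, chr12:26456453-26456612, minus strand: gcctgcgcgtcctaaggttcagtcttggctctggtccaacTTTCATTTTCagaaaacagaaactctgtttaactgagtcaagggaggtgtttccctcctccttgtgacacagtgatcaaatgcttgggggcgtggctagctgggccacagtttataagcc
Isg15, chr4:156200819-156200978, minus strand: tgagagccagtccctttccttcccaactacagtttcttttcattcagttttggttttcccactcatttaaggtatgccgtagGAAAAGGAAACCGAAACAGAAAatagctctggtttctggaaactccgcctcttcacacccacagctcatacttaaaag
Oas1g, chr5:120887614-120887773, minus strand: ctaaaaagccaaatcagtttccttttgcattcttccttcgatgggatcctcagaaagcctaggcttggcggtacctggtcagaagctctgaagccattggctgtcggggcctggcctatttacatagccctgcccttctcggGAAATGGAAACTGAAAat
Oas1a, chr5:120907526-120907685, minus strand: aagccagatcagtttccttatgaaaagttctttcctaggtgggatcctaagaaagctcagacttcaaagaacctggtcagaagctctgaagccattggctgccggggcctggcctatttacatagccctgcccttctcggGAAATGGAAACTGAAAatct
Isg15, with 3 overlapping cores, did not pass, while Rsad2, with 1, was higher. Oas1a and Oas1g carry the same pair of overlapping cores close to the start, and their windows of 300 bases were 87% identical; Oas1a was lower and Oas1g did not pass. The window of Irf7, which was also lower, held 0 exact cores. Between Ifit3 and Ifit3b the windows were 86% identical, and both genes were higher.

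Of the 6 sensors of nucleic acid among the members, 3 were higher and 3 did not pass. Ifi204 (ENSMUSG00000073489, chromosome 1, 173747293 to 173766943, GRCm38), a DNA sensor related to human IFI16, had 88.4 and 86.4 CPM in Treg-ablated libraries and 62.1, 59.0 and 54.6 in controls. Its groups were well apart, and it rose by 0.58 on the log2 scale (SE 0.0740, edgeR adjusted p = 0.000794). Ifi205 (chromosome 1, 174011998 to 174031810), of the same family, had 30.2 and 32.1 against 22.1, 21.8 and 18.9 CPM, and both treated libraries again lay above the controls (log2 fold change 0.57, SE 0.0958, adjusted p = 0.00267). Zbp1, a sensor of Z-form nucleic acid that can trigger necroptosis, had 38.1 and 37.0 against 21.8, 24.9 and 30.1 CPM, with controls that were spread more widely than the treated libraries (log2 fold change 0.56, SE 0.117, adjusted p = 0.00764). Its call ended without control replicate 2 (adjusted p = 0.0543).

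The RNA helicases of the RIG-I family did not pass. Ddx58, which encodes RIG-I, had 79.9 and 81.9 against 75.04, 76.9 and 74.6 CPM; its groups did not overlap, but the difference did not pass (log2 fold change 0.10, 95% interval −0.05 to 0.24). Dhx58, which encodes LGP2, had a log2 fold change of −0.11 (95% interval −0.35 to 0.12). For Ifih1, the gene of MDA5, the value was −0.37 (95% interval −0.81 to 0.08) at the lowest level of all members per kilobase.

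Another 3 genes of the same cluster on chromosome 1, taken from a list of other interferon-stimulated genes, changed alongside Ifi204 and Ifi205. Ifi211 rose from 32.0 to 47.2 CPM (log2 fold change 0.56, adjusted p = 0.00205), Mndal from 29.6 to 43.0 (0.54, adjusted p = 0.00473) and Ifi203 from 55.2 to 74.4 (0.43, adjusted p = 0.00547). Mndal and Ifi203 were picked with their values in view, and their annotated spans overlap each other. Aim2, the DNA sensor of the AIM2 inflammasome in the same region, had 3.15 and 2.53 CPM and did not pass (log2 fold change 0.30, adjusted p = 0.334). Sequence is shared in this cluster: of all stretches of 125 bases, the read length, 8.58% in Ifi204 and 13.8% in Ifi205 also occur in transcripts of another gene, almost all of them in Ifi211, so the counts of these genes are uncertain to that extent. The cluster is also low in GC content, at 37.6% to 41.3% for the 5 genes that rose.

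In the IFIT family, RNA-binding proteins that block translation of foreign RNA, 3 of 4 members were higher. Ifit1 (chromosome 19, 34640871 to 34650009) had 55.7 and 54.0 against 41.1, 41.5 and 42.9 CPM (log2 fold change 0.39, SE 0.0698, adjusted p = 0.00340). Ifit3 had 65.4 and 65.7 against 55.1, 55.0 and 53.3 CPM (log2 fold change 0.27, SE 0.0669, adjusted p = 0.0160). Replicates of both genes differed by far less than the groups did. Ifit3b, its close copy, had 15.1 and 15.2 against 10.9, 12.3 and 12.1 CPM (log2 fold change 0.36, adjusted p = 0.0301). Of their stretches of 125 bases, 23.4% of Ifit3 and 20.3% of Ifit3b occur in the other gene. Ifit2, the neighbour of these genes, had 74.6 and 78.3 against 71.8, 64.5 and 70.4 CPM and did not pass (log2 fold change 0.15, adjusted p = 0.157).

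The OAS family holds enzymes that make 2′-5′ oligoadenylate to activate RNase L, and their relatives. Of 6 members tested, 1 was higher and 1 lower. Each is a share of 16.7%, near the 13.5% and 12.3% of all genes tested that were higher and lower. Oas1a (chromosome 5, 120896256 to 120907521) had 20.9 and 20.8 against 26.9, 28.0 and 27.7 CPM, so both treated libraries lay below the controls (log2 fold change −0.40, SE 0.0849, adjusted p = 0.00781). Oasl2 (same chromosome, 114896936 to 114912234), an OAS-like protein, had 93.0 and 93.1 against 75.7, 78.0 and 79.4 CPM and was higher (log2 fold change 0.26, SE 0.0651, adjusted p = 0.0160). Neither call held without control replicate 2 (adjusted p = 0.0514 and 0.0783), and that of Oasl2 also ended without Treg-ablated replicate 1 (adjusted p = 0.0521). Oas3 had 57.8 and 61.9 against 59.2, 60.3 and 53.6 CPM, with groups that overlapped (log2 fold change 0.05, 95% interval −0.12 to 0.22). For Oas2, Oas1g and Oasl1 the log2 fold changes were 0.10, −0.12 and −0.25, and none passed. Oas1a and Oas1g share 36.2% and 27.3% of their stretches of 125 bases with each other, so how reads were divided between them is uncertain.

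Among the 3 genes of the ISG15 system, the ligase passed and the others did not. Isg15 itself had 56.4 and 48.4 against 49.9, 55.2 and 60.0 CPM, with overlapping groups (log2 fold change −0.07, 95% interval −0.28 to 0.14). Usp18, which removes ISG15 and dampens the receptor, had 42.1 and 44.1 against 39.1, 38.4 and 40.5 CPM and did not pass (log2 fold change 0.13, adjusted p = 0.212). Herc6, the main ISG15 ligase of the mouse, had 25.1 and 27.7 against 22.4, 20.5 and 20.1 CPM and was higher (log2 fold change 0.33, adjusted p = 0.0273), although 13.7% of its exon bases overlap the gene model Gm45193. A difference in response between Herc6 and the other 2 genes was not tested.

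Of 8 further antiviral effectors, 2 were higher and 0 lower, and 0 were lower in DESeq2 after adjustment. At an unadjusted p under 0.05 in edgeR's test, 1, Samd9l, was lower. Rsad2 (chromosome 12, 26442753 to 26456452), which encodes viperin, a radical SAM enzyme that makes a chain-terminating nucleotide, had 42.6 and 47.7 against 35.3, 31.2 and 34.4 CPM (log2 fold change 0.43, SE 0.0864, adjusted p = 0.00640). Its neighbour Cmpk2, a nucleotide kinase, had 22.3 and 20.3 against 19.3, 17.1 and 16.02 CPM; the groups did not overlap, but the gene did not pass (log2 fold change 0.29, adjusted p = 0.0705). Rtp4, a receptor chaperone that also limits virus replication, had 44.9 and 40.2 against 29.96, 29.95 and 32.5 CPM (log2 fold change 0.47, SE 0.0834, adjusted p = 0.00340). Of the stretches of 125 bases in Rtp4, 8.10% also occur in transcripts of another gene.

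The abundant effectors did not pass. Ifitm3 had 592 and 497 against 496, 535 and 590 CPM, Ly6e 703 and 658 against 632, 664 and 705, and Bst2 261 and 214 against 229, 260 and 264. In each, the spread within a group was as wide as the distance between groups, and the 95% intervals of the log2 fold changes were −0.20 to 0.22, −0.13 to 0.19 and −0.29 to 0.13. Samd9l, an inhibitor of translation, had 84.2 and 105 against 117, 112 and 108 CPM, below all controls without passing (log2 fold change −0.25, adjusted p = 0.0652). Samd9l was lower in edgeR's test with a correction for GC content (log2 fold change −0.40, adjusted p = 0.00668), also with a replicate block added. It was lower too with a gene length offset (adjusted p = 0.0197) and with a filter of 1 count in any library. Without Treg-ablated replicate 2 the log2 fold change was −0.41, while without Treg-ablated replicate 1 it shrank to −0.10. Isg20, an exonuclease, did not pass (log2 fold change 0.14). Nor did Mx1 and Mx2, which RefSeq lists as transcribed pseudogenes in the reference mouse assembly, with log2 fold changes of −0.20 and 0.54 at levels of 2.65 to 6.25 CPM; Mx2 passed as higher without control replicate 1 (adjusted p = 0.0395).

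Of the transcription factors of the response, 1 rose, 1 fell and 1 did not pass. Stat2 (chromosome 10, 128270576 to 128292849), a subunit of ISGF3, had 94.9 and 97.1 against 74.0, 74.5 and 67.4 CPM (log2 fold change 0.41, SE 0.0711, adjusted p = 0.00292). Irf9, its DNA-binding partner, had 67.2 and 72.6 against 63.8, 65.2 and 65.7 CPM, with groups just apart and a difference that did not pass (log2 fold change 0.11, 95% interval −0.05 to 0.26). Irf7 (chromosome 7, 141262706 to 141266481), which amplifies IFN-α production, had 39.3 and 35.0 against 49.9, 47.8 and 50.3 CPM, so that both treated libraries lay well below the controls (log2 fold change −0.40, SE 0.0796, adjusted p = 0.00548).

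The remaining members held the largest fall and several rises. Siglec1 (chromosome 2, 131069220 to 131086765), which encodes the macrophage lectin CD169, had 3.22 and 3.24 against 8.26, 9.11 and 4.74 CPM. The treated libraries were nearly equal and below all controls, of which replicate 3 was the lowest (log2 fold change −1.21, SE 0.266, adjusted p = 0.00925). Without control replicate 2 the fall did not pass (log2 fold change −1.01, adjusted p = 0.0588). Macrophage markers moved the same way, with 8 of 12 tested lower, and their part in the fall of Siglec1 was not tested. Ifi27l2a had 17.8 and 15.01 against 22.2, 22.5 and 24.0 CPM (log2 fold change −0.47, SE 0.105, adjusted p = 0.00960), and did not pass without Treg-ablated replicate 2 (adjusted p = 0.0559).

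Xaf1 (chromosome 11, 72301629 to 72313733), which opposes the apoptosis inhibitor XIAP, had 45.3 and 47.0 against 29.8, 30.8 and 33.6 CPM, a clear separation (log2 fold change 0.56, SE 0.0798, adjusted p = 0.00128). Ifi44, an interferon-induced protein with antiviral activity, had 41.4 and 44.4 against 32.2, 32.4 and 29.4 CPM (log2 fold change 0.45, SE 0.0806, adjusted p = 0.00358). Parp14, a mono-ADP-ribosyltransferase, had 103 and 125 against 97.0, 91.2 and 82.0 CPM, with treated libraries that differed from each other more than most (log2 fold change 0.34, adjusted p = 0.0253). Phf11d, a PHD finger protein, had 12.4 and 12.1 against 10.1, 9.82 and 8.92 CPM (log2 fold change 0.345, adjusted p = 0.0451). Trim30a, a regulator of NF-κB signalling, had 26.7 and 28.0 against 26.1, 21.0 and 20.8 CPM and did not pass (log2 fold change 0.27, adjusted p = 0.0947).

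**Figure D2:**
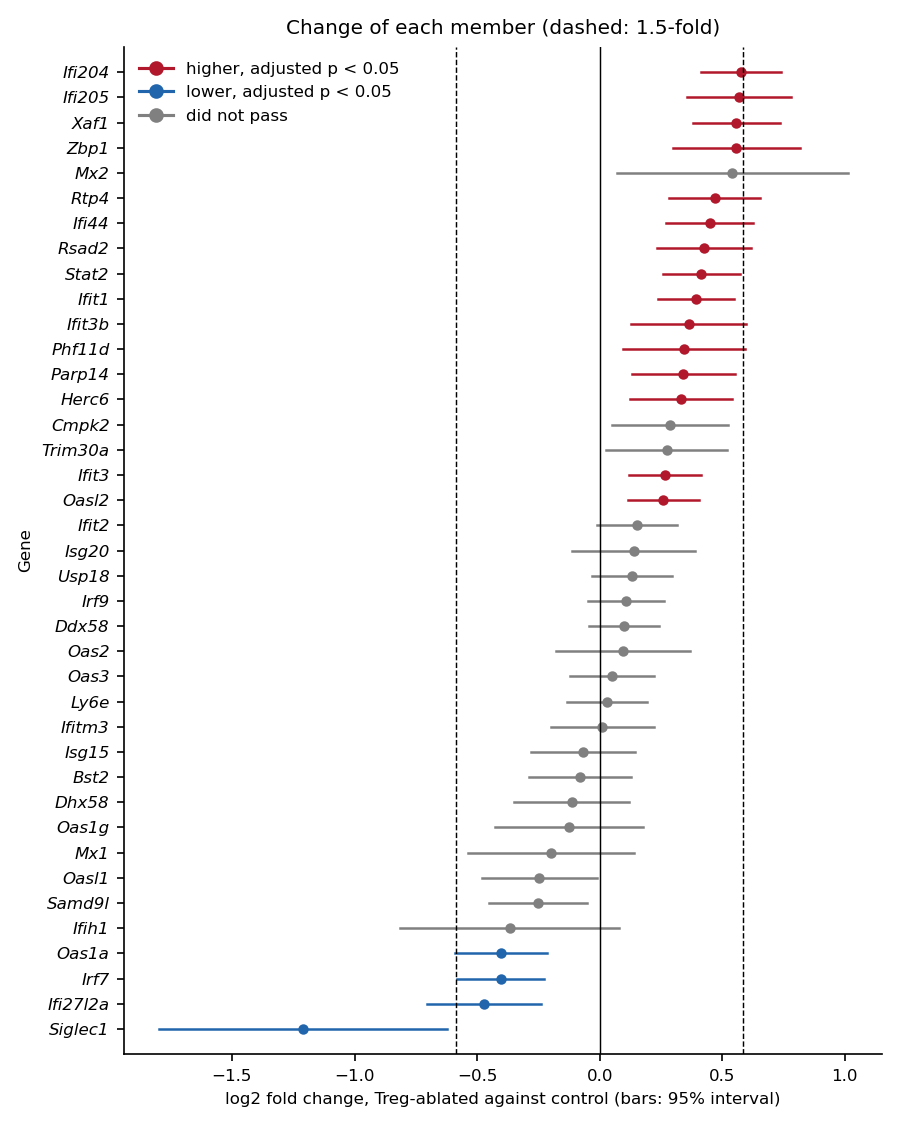
Log2 fold change of each of 39 members, Treg-ablated against control (points), with 95% intervals from the edgeR fit (bars); colour shows the call at an adjusted p under 0.05 and dashed lines mark 1.5-fold in either direction. The point of Siglec1, at −1.21, is the only one beyond a dashed line, and 18 of the 20 grey intervals lie between the lines.

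The intervals bound how far the uncalled genes could have moved. For 18 of the 20 members that did not pass, the 95% interval of the log2 fold change, not adjusted for the number of genes, lay within 1.5-fold in both directions. The exceptions were Ifih1 and Mx2, with group means of 3.32 to 4.86 CPM.

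Several calls did not hold when 1 library was left out. Without control replicate 2, the deepest library, 7 members were higher and 2 lower, against 812 and 554 of all genes. With all 5 libraries, 1971 of all genes were higher and 1787 lower, so calls were lost across the whole table. Besides Zbp1, Oasl2, Oas1a and Siglec1, the calls that ended were those of Rsad2, Ifit3, Ifit3b, Herc6, Parp14 and Phf11d (adjusted p = 0.0514, 0.0760, 0.0772, 0.116, 0.0975 and 0.122). Leaving out any other library left 11 to 16 members higher and 4 lower. The call of Phf11d ended without any one of the 5 libraries (adjusted p = 0.0634 to 0.14). Ifit3b did not pass without either Treg-ablated library or control replicate 1 (0.0844, 0.0723 and 0.0797), and Ifit3 did not pass without Treg-ablated replicate 1 (0.0514). Herc6 and Parp14 did not pass without Treg-ablated replicate 2 (0.139 and 0.172) or control replicate 3 (0.0598 and 0.0539). Cmpk2 and Trim30a passed as higher without control replicate 1 (adjusted p = 0.0439 and 0.0219). Ifi204, Ifi205, Xaf1, Rtp4 and Stat2 kept their calls in all 15 alternatives other than the test against 1.5-fold.

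The called members differed in GC content, as did the called genes of the whole table. The median GC content of transcripts was 45.8% for the 15 members that were higher, 54.5% for the 4 that were lower and 50.9% for the 20 that did not pass. Over all genes the medians were 47.0% for those higher, 54.4% for those lower and 50.2% for the rest. With an offset that removed the trend with GC content in each library, 10 of the 15 members stayed higher and all 4 stayed lower, and Samd9l joined those lower. The calls that ended were those of Ifit3, Ifit3b, Herc6, Parp14 and Phf11d (adjusted p = 0.0526, 0.117, 0.130, 0.0507 and 0.176). Zbp1 and Stat2, the GC-richest of the members that were higher, had larger changes with the offset (log2 fold changes 0.61 and 0.50).

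**Figure D3:**
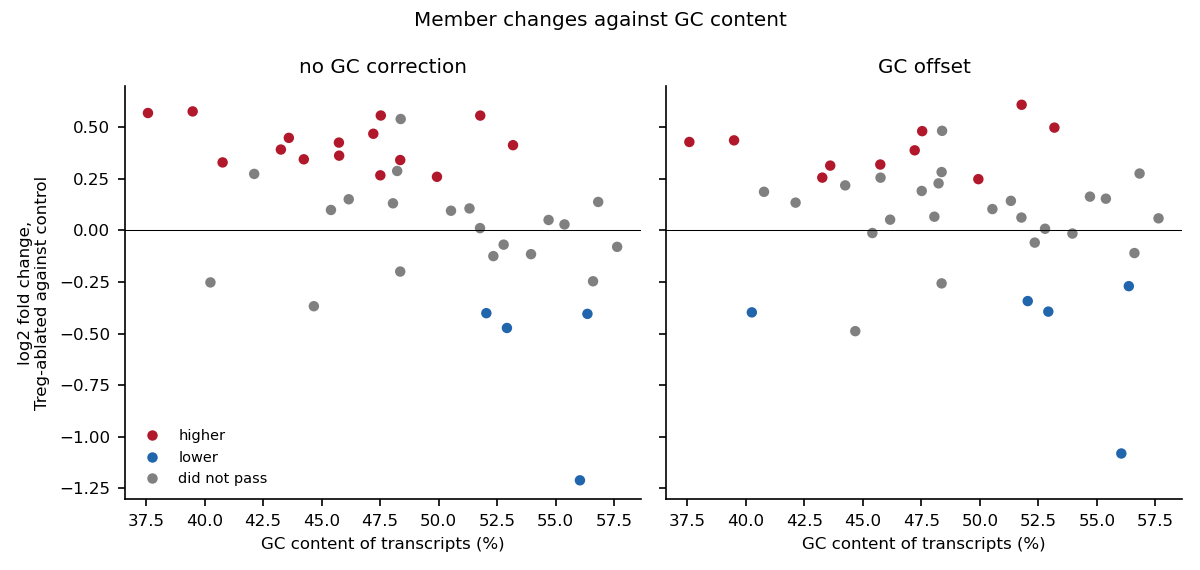
Log2 fold change of 39 members against the GC content of their transcripts, without (left) and with (right) an offset for GC content; colour shows the call at an adjusted p under 0.05. On the left the 15 members that were higher have a median GC content of 45.8% and the 4 that were lower 54.5%, and on the right 10 are higher and 5 lower.

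Transcripts of the interferons themselves were at the edge of detection. Over 20 listed genes of type I and type III interferons, the libraries held 1, 1, 2, 2 and 1 counts in all, and no gene had more than 1 count in a library. Of these genes, 14 had 0 counts in every library. Ifnb1, the gene of IFN-β, had 1 count in each of 2 controls and 0 in the Treg-ablated libraries. None could be tested, so at this depth no difference could have been detected. Ifng, which makes the type II interferon, was low but measurable, with 3.40 and 2.79 against 0.806, 0.751 and 0.836 CPM (log2 fold change 1.96, adjusted p = 0.000791).

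The receptor genes did not pass, while some inhibitors of signalling rose and others did not. Of 12 receptor and signalling genes tested, 4 were higher (33.3%) and 0 lower, with a median log2 fold change of 0.08. Over all genes tested the shares were 13.5% and 12.3%. At an unadjusted p under 0.05 in edgeR's test 1 was lower, and 0 were lower in DESeq2 and limma-voom after adjustment. With a gene length offset, 5 were higher and 1 lower. Ifnar1 averaged 68.5 ± 7.64 (SD, n = 2) against 69.7 ± 2.21 CPM (SD, n = 3) and Ifnar2 30.3 ± 2.63 against 28.9 ± 1.68. Neither passed (log2 fold changes −0.03 and 0.07). Socs1, the feedback inhibitor, rose 1.68-fold (adjusted p = 0.00128), Ptpn2, a phosphatase of the JAK kinases, 1.35-fold (adjusted p = 0.00432) and Pias1, an inhibitor of STAT signalling, 1.25-fold (adjusted p = 0.0157). Socs3, Ptpn6 and Ptpn11, also on the list, were not among the genes that were higher.

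Genes that sense nucleic acids or relay the signal to interferon leaned the other way. Of 22 tested, 1 was higher and 6 were lower, with a median log2 fold change of −0.06. These are shares of 4.55% and 27.3%, against 13.5% and 12.3% of all genes tested. Mavs, the adaptor of RIG-I and MDA5, fell from 50.3 ± 1.95 to 39.3 ± 0.0817 CPM (log2 fold change −0.36, adjusted p = 0.00686). Tlr8, an endosomal receptor for RNA, fell from 1.56 ± 0.327 to 0.510 ± 0.0812 CPM (−1.60, adjusted p = 0.0106), Tlr4, the receptor for lipopolysaccharide, from 48.1 ± 3.78 to 35.5 ± 7.31 (−0.45, adjusted p = 0.0202) and Ticam1, its adaptor, from 25.3 ± 1.25 to 19.7 ± 2.12 (−0.36, adjusted p = 0.0248). Irf3, which switches on IFN-β, did not pass (log2 fold change −0.0029, adjusted p = 0.986). Fewer genes of this list were lower in some other settings: 0 without control replicate 2, and 3 with the GC offset.

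A wider list of type I interferon-stimulated genes also held changes in both directions. Of 63 tested, 14 were higher (22.2%) and 9 lower (14.3%), with a median log2 fold change of 0.07. Over all genes tested the shares were 13.5% and 12.3%, so the share that were lower lay near the background. Beside Ifi211, the smallest p-values belonged to Trim21, an antibody receptor and ubiquitin ligase, which rose 1.52-fold (adjusted p = 0.00224), Parp9, an ADP-ribosyltransferase subunit, 1.33-fold (adjusted p = 0.00228), and Nmi, which binds STAT proteins, 1.45-fold (adjusted p = 0.00292). Without control replicate 2, 8 were higher and 3 lower, and with the GC offset 10 were higher and 4 lower. Genes associated with IFN-γ gave much larger changes in the same libraries: 31 of 35 tested were higher, and the median log2 fold change was 1.15, with 21 over 2-fold higher. In that list 0 were lower in edgeR's test, adjusted or at an unadjusted p under 0.05. After adjustment, 0 were lower in DESeq2 and limma-voom. Cxcl10, a chemokine for T cells that ISGF3 also induces, had a log2 fold change of 1.71 (adjusted p = 1.35e-06), Cxcl9, its relative, 1.61, Irf1, a transcription factor of both interferon types, 0.74, and Gbp4 and Gbp2, which encode guanylate-binding GTPases, 1.86 and 1.204. Tested against 1.5-fold, 22 of that list were still higher, compared with 0 members of the type I list. The lists were chosen with earlier results of these data known, and a difference between them was not put to a test.

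**Figure D4:**
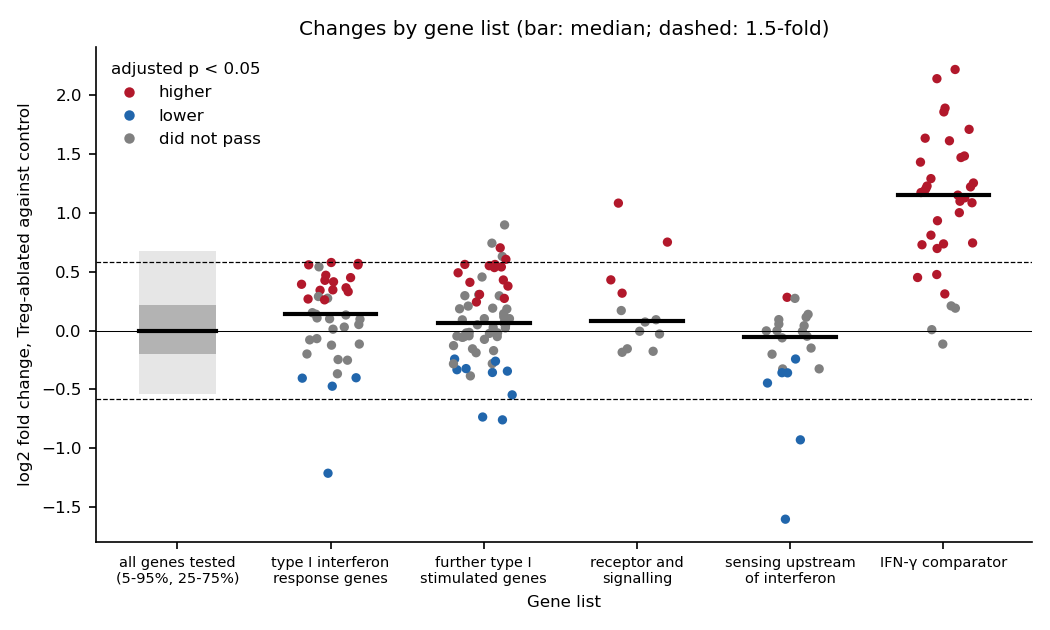
Log2 fold changes of the genes in 5 lists (points, coloured by call at an adjusted p under 0.05), with medians as bars, beside the middle 50% and 90% of all 14580 genes tested (dark and light grey). The type I interferon response genes centre on 0.14 and the IFN-γ comparator on 1.15.

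Markers of several cell types also changed in these libraries, in differing directions. Of 12 macrophage markers tested, 8 were lower and 0 higher (0 also at an unadjusted p under 0.05 in edgeR's test), and their 13 listed genes summed to 156 to 175 CPM in Treg-ablated and 282 to 294 CPM in control libraries, with none at 0. Csf1r, whose product binds CSF-1 and sustains macrophages, fell 2.28-fold (adjusted p = 6.79e-05 in edgeR's test). Of 7 monocyte markers 5 were lower (F13a1, Ccr2, Lyz2, Vcan and Fn1) and 1, Ly6c2, higher, with sums of 8520 to 10310 against 10800 to 12900 CPM. Vcan and Fn1 encode matrix proteins that other cells also make, so these sums cannot be assigned to monocytes. Of 10 fibroblast markers 4 were lower and 1 higher, and their sums overlapped, at 11040 to 11740 against 9926 to 12090 CPM. Of 11 T cell markers 9 were higher, and they summed to 75.3 to 75.9 against 32.0 to 40.4 CPM. The 8 cytotoxic markers summed to 64.5 to 66.2 against 18.0 to 20.7 CPM, with 6 higher, and the 8 B cell markers to 64.8 to 78.8 against 17.9 to 21.6 CPM, with 7 higher. Of 10 listed markers of plasmacytoid dendritic cells, the cells best known for making IFN-α, 5 could be tested, with 2 higher (Tcf4 and Runx2) and 1 lower (Pld4), genes that other cells also express. Siglech, the most specific of them, had 7, 2, 9, 3 and 2 counts. The part of these cell types in the changes of the members was not tested.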

How the data were processed

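Gene expression was measured by RNA-seq in 5 libraries (KAPA stranded mRNA kit, paired-end reads of 125 bases, per the labels' protocols). The deposited values are raw counts per gene, made by the authors with featureCounts 1.6.2 over the exons of an Ensembl 83 annotation of GRCm38, per the file headers. The recorded command carries no strand or multi-mapping option, so a gene and an antisense or near-identical partner can share reads or lose them. The submitters' processing notes name Subread 1.6.2, DESeq2 1.16.1, Trimmomatic 0.33 and FastQC 0.11.5.

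Gene symbols were matched for 46488 of 46983 identifiers, and 21043 genes had 0 counts in all 5 libraries. Counts were tested with edgeR 4.0.16 (filterByExpr, TMM, quasi-likelihood F test, Benjamini-Hochberg adjustment over 14580 genes, threshold 0.05) in R 4.3.3. Standard errors are the log2 fold change divided by the root of F, and 95% intervals use the fit's degrees of freedom. Alternatives were DESeq2 1.42.0, limma-voom (limma 3.58.1), other scalings and filters, a test against 1.5-fold, a replicate block, per-library lowess offsets on GC content or length (span 0.3, prior count 2) and each library left out. GC content came from GENCODE M21 transcripts. The main edgeR test was tried on simulated counts, and the alternatives were not. Libraries of a group differed beyond sampling noise (chi-square per degree of freedom 4.17 to 7.71), and each was counted as 1 sample; separate preparations of 1 RNA could differ in the same way.

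The members and lists were chosen with earlier results of these data known. Named genes were the 12 higher members with the largest changes, all lower members, the 8 uncalled members with the highest mean, up to 4 genes with the smallest p in each other list and a set of markers and interferon genes. The remaining members are given by value. One gene of the receptor and signalling list is counted there but is not reported here.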

Additional observations from a re-analysis of the deposited data

How the results depend on the processing

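None of the 19 called members changed direction under any of the 16 alternatives. All 39 members kept their side of the threshold with RLE size factors, library size alone, a filter of 1 CPM in 2 libraries or limma-voom. Against 1.5-fold, edgeR called 98 of all genes higher and 23 lower, and 0 members in either direction. With the replicate number as a block, 1296 genes were higher and 1116 lower, and 9 members were higher and 4 lower. No label says that a number marks a shared mouse, litter or day, so the numbers were not taken to pair the libraries. Deviations of same-numbered libraries correlated at −0.226 and −0.0213, but with 2 Treg-ablated libraries their deviations mirror each other, so these values cannot settle pairing. The numbers are those of the sample titles; the file names number the Treg-ablated libraries 2 and 3, and a block on those was not run. With the GC offset and the replicate block together, 1171 genes were higher and 1030 lower, and 7 members were higher and 3 lower. Calls that ended there but held with the GC offset alone were those of Ifit1, Ifi44, Oasl2, Irf7 and Oas1a (adjusted p = 0.0659, 0.0754, 0.0785, 0.0872 and 0.0516). With each library left out, 812 to 1687 genes were higher and 554 to 1538 lower, and 7 to 16 members were higher and 2 to 4 lower; the lowest values came without control replicate 2, the deepest library. DESeq2 called 12 members higher and 4 lower. The cause of these differences was not tested. Interferon transcripts, at 1 or 2 counts per library over 20 genes, were too rare to compare.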
